A study of Mus musculus with 12 samples.

Results

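The enzymes and carriers that take up glucose and break it down form a list of 36 genes, chosen by name and by function: 3 glucose transporters, 3 hexokinases, the steps of glycolysis with the PFKFB regulators, the lactate enzymes and lactate carriers, and both arms of the pentose phosphate pathway. Of the 36, 31 had a probe set naming them alone and were tested among 18193 genes in all. Expression had been measured in whole brown adipose tissue of leptin-deficient ob/ob mice, obese males of 3 months kept on normal chow, with 1 array per mouse and 6 mice in each group. The anti-FGFR1 group had received, once and into the peritoneum, an agonistic antibody to the receptor FGFR1 at 1 mg/kg, the control IgG group was pair-fed, so that its food intake matched that of the treated mice, and tissue was taken at day 4. The dose of the control IgG is not given in the sources used here. All mice carried the ob/ob genotype, so the controls share the leptin deficiency, and no lean mice and no other time point were used here. Values are log2 expression, and a difference or fold change is anti-FGFR1 minus control IgG.

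Glycolysis splits glucose into pyruvate: hexokinases trap glucose as glucose 6-phosphate, phosphofructokinase commits it to breakdown, and the lower steps yield ATP and pyruvate, which lactate dehydrogenase can turn into lactate for export. The pentose phosphate pathway branches off at glucose 6-phosphate, its oxidative arm makes NADPH for lipid synthesis and redox defence, and its non-oxidative arm returns the carbon to glycolysis. Brown fat burns fatty acids and glucose to make heat, and active brown fat is known for a high uptake of glucose, part of which supplies glycerol 3-phosphate and new fatty acids.

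Of the 31 tested members, 3 rose after anti-FGFR1 (limma, Benjamini-Hochberg adjusted p under 0.05 over all genes): Pgd of the oxidative pentose phosphate arm, Pfkl of upper glycolysis and Pgam1 of lower glycolysis. Among all genes 2.94% rose by the same rule. No member fell by this rule, against 5.09% of all genes. The members are bright, and 29 of the 31 lay above the median level of all genes. In a fit of the 9096 genes above that level, 525 genes rose and 1117 fell, among them 4 members that rose and 0 that fell. The shares of all genes given here and below are thus not matched to the members in brightness. At an unadjusted p under 0.05 there were 7 members, 6 higher and Hk2 lower, and 4081 of all 18193 genes. The median log2 fold change of the members was 0.03, beside 0.01 for all genes, and 18 members lay above 0 and 13 below. The changes were small in either direction, with a median absolute log2 fold change of 0.08 for the members and 0.07 for all genes.

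To show what lies upstream of the 3 genes that rose, the 250 bases before the outermost start of each are given below, 5′ to 3′ on the gene's own strand, from RefSeq on GRCm38.p6. Capitals mark every match, on either strand, to one of 6 motifs: the HIF core ACGTG, the E-box CACGTG (which holds ACGTG), the GC box GGGCGG, the CCAAT box, the TATA box TATAAA and the ETS core CCGGAA. Pfkl lies on chromosome 10 from 77986947 to 78009807, Pgam1 on chromosome 19 from 41911871 to 41918665, and Pgd on chromosome 4 from 149149991 to 149166705, where the table holds 2 starts.
Pfkl, chr10:78009808-78010057, minus strand: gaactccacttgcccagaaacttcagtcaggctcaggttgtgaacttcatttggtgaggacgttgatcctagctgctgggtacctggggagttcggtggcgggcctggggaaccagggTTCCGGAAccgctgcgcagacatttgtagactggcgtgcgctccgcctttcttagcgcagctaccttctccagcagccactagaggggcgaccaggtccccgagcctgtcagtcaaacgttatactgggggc
Pgam1, chr19:41911621-41911870, plus strand: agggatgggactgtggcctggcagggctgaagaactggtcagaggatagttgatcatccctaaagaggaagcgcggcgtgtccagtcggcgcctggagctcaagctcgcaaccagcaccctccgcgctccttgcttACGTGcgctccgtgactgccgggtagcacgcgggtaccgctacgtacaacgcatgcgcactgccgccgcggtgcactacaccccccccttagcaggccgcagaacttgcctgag
Pgd, chr4:149166706-149166955, minus strand: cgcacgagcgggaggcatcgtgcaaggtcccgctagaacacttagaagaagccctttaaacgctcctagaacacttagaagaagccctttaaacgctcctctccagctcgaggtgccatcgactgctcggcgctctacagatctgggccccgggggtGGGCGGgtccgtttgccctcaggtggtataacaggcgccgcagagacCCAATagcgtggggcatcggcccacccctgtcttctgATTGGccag
The windows had GC contents of 59.2%, 64% and 60.4% in that order. Pfkl held 2 overlapping matches to CCGGAA, 1 on each strand, Pgam1 held 1 match to ACGTG, and Pgd held 1 to GGGCGG and 2 to CCAAT. None of the 6 motifs occurred in more than 1 of the 3 windows. Over 32851 RefSeq windows of the same length, ACGTG was found in 16.6%, CACGTG in 6.02%, GGGCGG in 32.7%, CCAAT in 33.8%, TATAAA in 12.4% and CCGGAA in 12%. Of the 30 tested members with a window, 10 held ACGTG, 3 CACGTG, 18 GGGCGG, 12 CCAAT, 0 TATAAA and 6 CCGGAA. Members were counted at their outermost start only. The 32851 windows include every start, so a gene with several starts counts more than once there, and the 2 sets of counts are not like for like. A match describes letters only, and no binding was measured.

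In Pgd, which encodes the 6-phosphogluconate dehydrogenase that yields NADPH in the cytosol, control arrays ran from 12.46 over a median of 12.54 to 12.59, and treated arrays from 12.65 over 12.81 to 12.96. All 6 treated mice lay above all 6 controls, as in 1.57% of all genes, and the spread was wider among the treated mice (SD 0.111 against 0.0531, n = 6 each). The rise was 0.28 ± 0.05 (log2, SE; 1.21-fold; limma adjusted p = 0.00528). Pgd has 4 probe sets, which were also tested in a fit over all 34945 probe sets with a single gene, where 6.90% were called in either direction. The 3 called Pgd probe sets rose by 0.28, 0.28 and 0.27, and all 3 are of the x type, whose probes can also match other sequences. The fourth, not of that type, differed by 0.16 ± 0.06 and was not called (limma adjusted p = 0.137).

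In Pgam1, the phosphoglycerate mutase of most tissues other than muscle, control arrays ran from 13.02 over 13.09 to 13.19 and treated arrays from 13.25 over 13.30 to 13.35. The groups did not overlap, and the treated mice lay close together (SD 0.0381, against 0.0726 in controls). The rise was 0.20 ± 0.04 (1.15-fold; limma adjusted p = 0.0122), from a single probe set.

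In Pfkl, the liver-type subunit of phosphofructokinase, control arrays ran from 12.75 over 12.83 to 12.95 and treated arrays from 12.97 over 13.05 to 13.16. The groups did not overlap here either, though the highest control and the lowest treated mouse were close. The rise was 0.21 ± 0.05 (1.15-fold; limma adjusted p = 0.0175). Its other probe sets differed by 0.16 and 0.18, in the same direction, without being called. These 3 were the members in which all 6 treated mice lay above all controls, and in no member did all 6 lie below, as in 3.55% of all genes.

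The 3 calls were kept when any 1 mouse was left out, with adjusted p up to 0.0453 for Pfkl, 0.0327 for Pgam1 and 0.0147 for Pgd. The difference between the 3′ and 5′ control probe sets of Actb and Gapdh, which rises as RNA or its labelling product shortens, was itself larger in the treated group, at 0.203 ± 0.0266 (SD, n = 6) against 0.161 ± 0.0306 (two-sided exact permutation p = 0.0368). With that difference as a covariate the calls of Pfkl and Pgam1 ended, at 0.23 ± 0.06 (limma adjusted p = 0.0647) and 0.21 ± 0.06 (0.0524). Pgd stayed called at 0.27 ± 0.07 (0.0486). The estimates of Pfkl and Pgam1 were thus no smaller than without the covariate, and their SEs were larger.

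**Figure D1:**
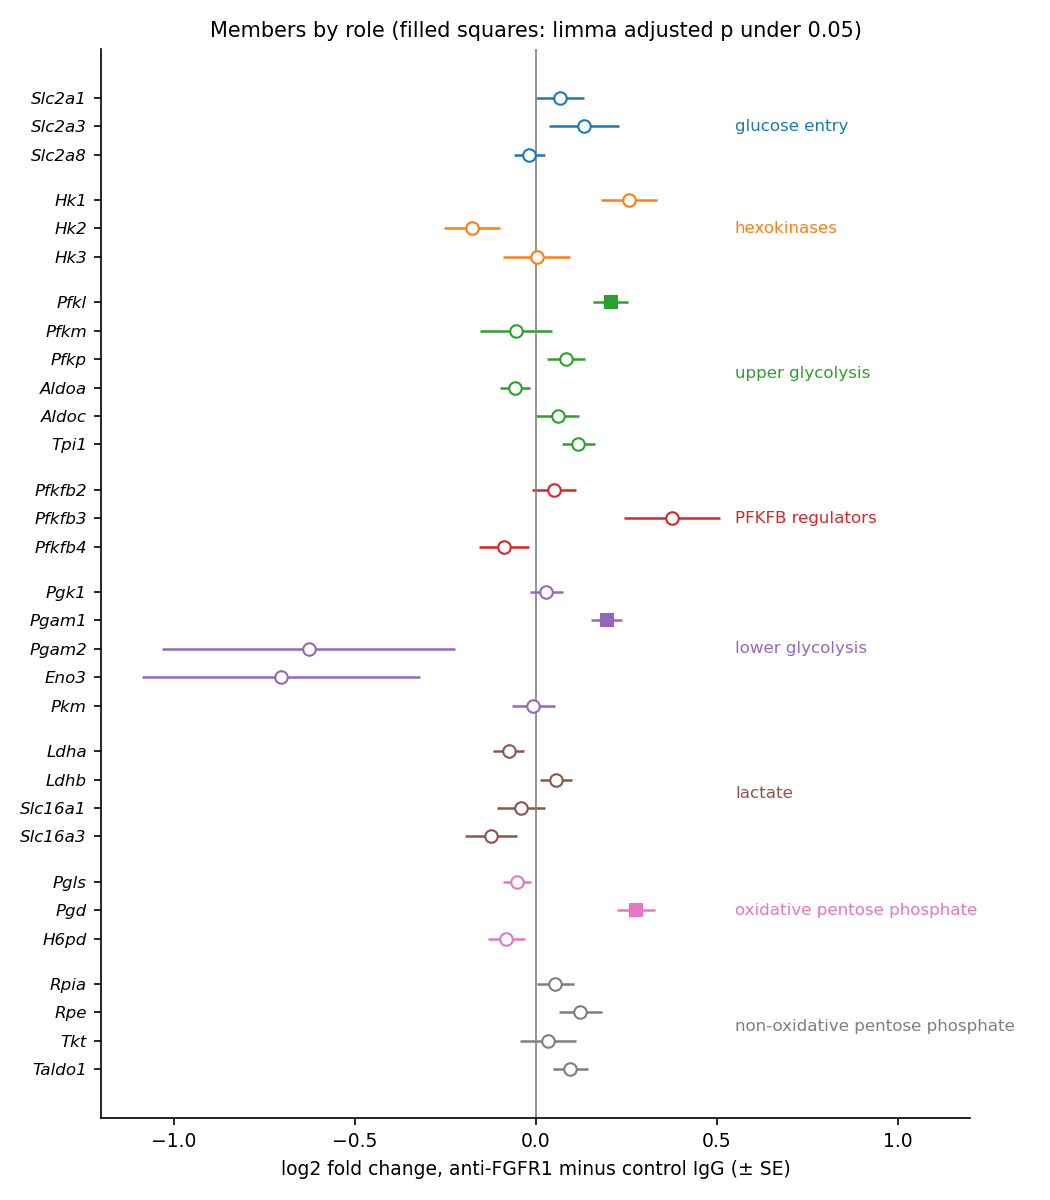
Log2 fold change (anti-FGFR1 minus control IgG, horizontal axis, ± SE) of the 31 tested members, grouped by role, with filled squares for the members that passed limma's adjusted p under 0.05. The 3 filled squares, Pfkl, Pgam1 and Pgd, lie between 0.20 and 0.28, and the long bars far below 0 are Pgam2 and Eno3.

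Among the genes of glucose entry none of 3 was called, and the median difference was 0.07. Slc2a8, an intracellular glucose transporter, ran from 9.87 over 9.94 to 9.97 in controls and from 9.79 over 9.92 to 9.99 in treated mice. The treated values spanned the whole control range, and the difference was -0.02 ± 0.04. Slc2a1, the widely expressed basal transporter GLUT1, differed by 0.07 ± 0.07, with control arrays from 7.95 to 8.30 and treated arrays from 8.10 to 8.38. Slc2a3, the high-affinity transporter GLUT3 of neurons and blood cells, differed by 0.13 ± 0.10, and its 4 probe sets lay on both sides of 0, from -0.08 to 0.13. Slc2a4, the insulin-responsive GLUT4 and not in the list of 36, was at 11.95 ± 0.15 (SD, n = 6) in controls and 11.77 ± 0.14 in treated mice, a difference of -0.19 ± 0.08 that was not called (limma adjusted p = 0.173).

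None of the 3 hexokinases was called, with Hk1 above 0 and Hk2 below. Hk1, the broadly expressed hexokinase, ran from 11.02 over 11.19 to 11.47 in controls and from 11.28 over 11.42 to 11.69 in treated mice. Only 2 treated mice lay above all controls, control 4 was at the top of its group, and the difference was 0.26 ± 0.08 (limma adjusted p = 0.0596). Without control 4 (0.31, limma adjusted p = 0.0151) or treated mouse 4, the lowest of its group (0.29, 0.0475), Hk1 passed. Each of these omissions widens the gap by construction. Hk1 also passed with another quantile normalization (0.0453), without the dimmer genes (0.0352) and with a trended prior (0.0377). Without any other single mouse it did not pass (limma adjusted p up to 0.129). Nor did it pass with the replicate block (0.121), the mean of probe sets (0.144) or without the lowest muscle arrays (0.143). The muscle covariate (0.0622), the macrophage covariate (0.118) and the 3′ to 5′ covariate (0.318) also left Hk1 uncalled. Hk2, the insulin-responsive hexokinase of muscle and fat, ran from 11.91 over 12.06 to 12.34 in controls and from 11.75 over 11.95 to 12.09 in treated mice. The groups overlapped, with 2 treated mice below all controls, and the difference was -0.18 ± 0.08 (adjusted p = 0.195). Hk3, a hexokinase of myeloid cells, was at 8.72 in either group.

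Upper glycolysis held Pfkl as its only called member among 6. Pfkm and Pfkp, the muscle-type and platelet-type subunits of phosphofructokinase, differed by -0.05 ± 0.10 and 0.08 ± 0.05. Tpi1, triosephosphate isomerase, ran from 12.86 over 13.00 to 13.05 in controls and from 13.02 over 13.11 to 13.18 in treated mice. Here 5 treated mice lay above all controls, and the difference of 0.12 ± 0.05 did not pass (limma adjusted p = 0.134). Aldoa, the main aldolase of muscle and many other tissues, ran from 14.23 over 14.29 to 14.40 in controls and from 14.22 over 14.23 to 14.30 in treated mice. These values lie near the top of the scale of the arrays, which ends at 14.9, and the groups overlapped (-0.06 ± 0.04). Aldoc, the aldolase known from brain, differed by 0.06 ± 0.06.

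The PFKFB enzymes set the level of fructose 2,6-bisphosphate, the strongest activator of phosphofructokinase. Pfkfb3, the form with the highest kinase activity, ran from 11.36 over 11.72 to 12.11 in controls and from 11.64 over 12.10 to 12.43 in treated mice. With 3 treated mice above all controls and the others among them, the difference was 0.38 ± 0.13 (limma adjusted p = 0.105). Its other probe set differed by 0.12. Leaving out control 5, the highest control (0.46, limma adjusted p = 0.0416), or treated mouse 6, the lowest treated mouse (0.46, 0.0353), brought Pfkfb3 past the threshold. Leaving out either of these mice widens the gap by construction. Without any other single mouse Pfkfb3 did not pass (limma adjusted p up to 0.198). Pfkfb2 and Pfkfb4 differed by 0.05 ± 0.06 and -0.09 ± 0.07.

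**Figure D2:**
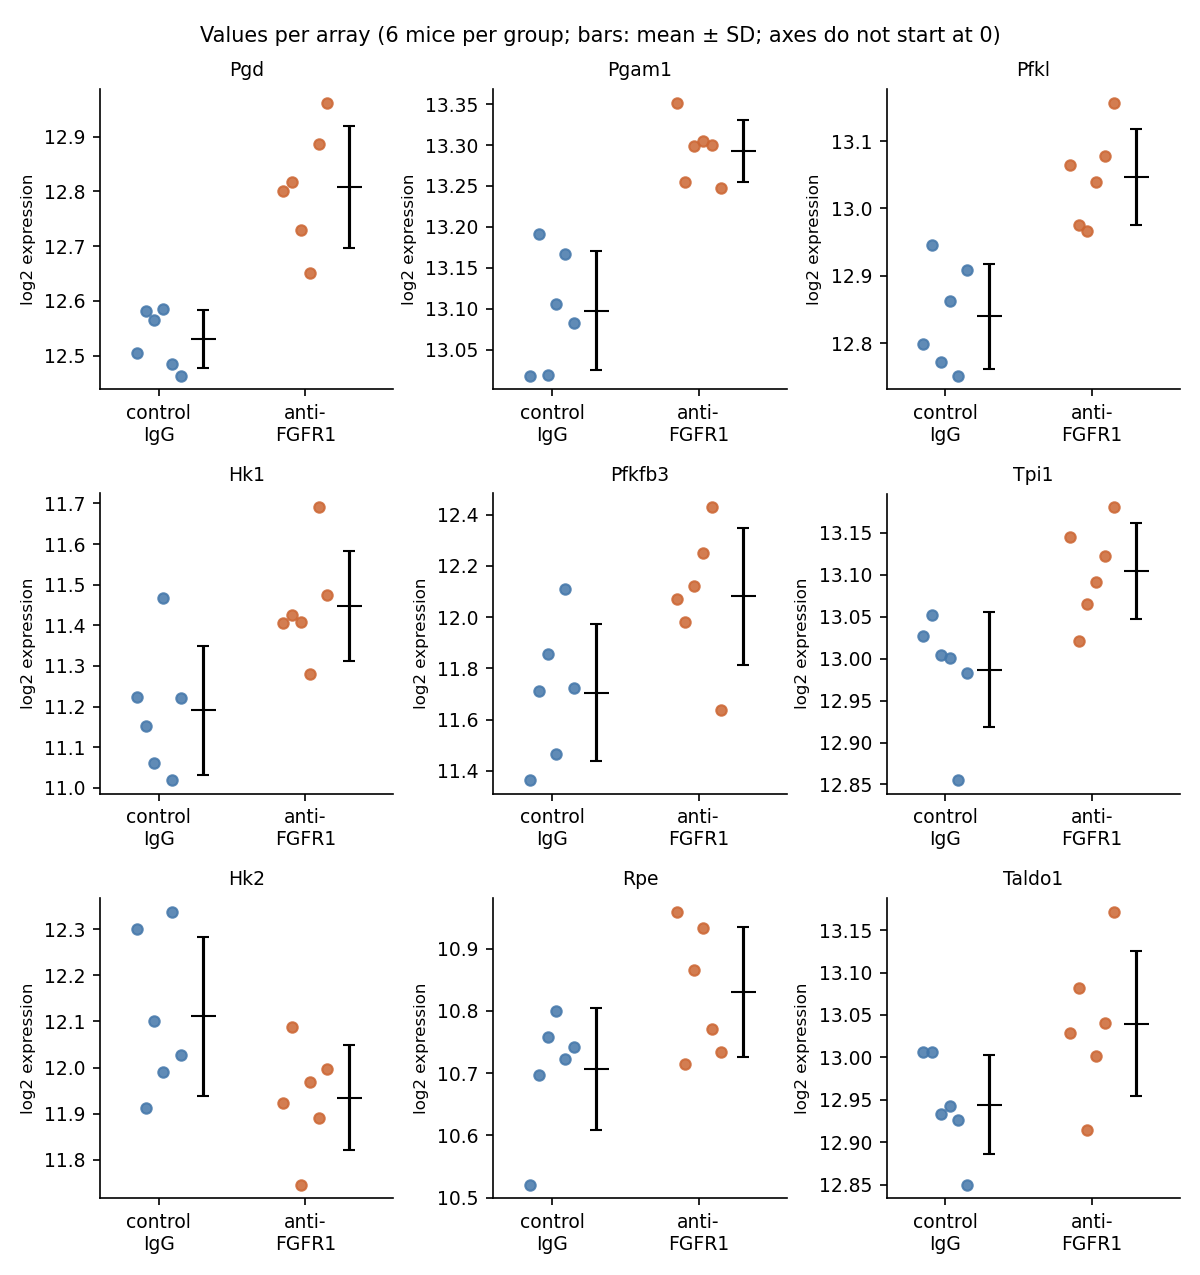
Log2 expression per array (vertical axes, which do not start at 0) in 6 control IgG and 6 anti-FGFR1 mice, with mean ± SD, for the 3 members that rose and the 6 with the next smallest p. In Pgd, Pgam1 and Pfkl the groups do not overlap, whereas in Hk1, Pfkfb3, Tpi1, Hk2, Rpe and Taldo1 they do.

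In lower glycolysis Pgam1 was the only called member among 5. Pgk1, the phosphoglycerate kinase that makes the first ATP of the pathway, ran from 13.74 over 13.87 to 13.97 in controls and from 13.81 over 13.88 to 13.97 in treated mice. The ranges nearly coincided (0.03 ± 0.05). Pkm, the pyruvate kinase of muscle and most other tissues, differed by -0.01 ± 0.06. Gapdh had no probe set naming it alone apart from the 3 control probe sets of the array, and these differed by -0.03, -0.04 and -0.04 (two-sided exact permutation p = 0.47, 0.281 and 0.392).

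The muscle isozymes Pgam2 and Eno3 had the largest differences of all members, and neither was called. Pgam2, the muscle phosphoglycerate mutase, ran from 7.30 over 8.40 to 9.60 in controls and from 6.58 over 7.91 to 8.96 in treated mice. Eno3, the muscle enolase, ran from 9.14 over 10.24 to 10.90 in controls and from 7.92 over 9.45 to 10.56 in treated mice. The overlap was wide in both, and the differences were -0.63 ± 0.40 and -0.70 ± 0.38 (limma adjusted p = 0.389 and 0.298). The mean of 18 skeletal muscle markers varied as widely, from 9.17 to 11.51 in controls and from 6.92 to 11.40 in treated mice, with control 6 and treated mouse 5 lowest, and it differed by -0.50 between the groups (two-sided exact permutation p = 0.608). None of the 18 markers was called.

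After the mean of each group was subtracted, the skeletal muscle marker mean was compared with each of the 31 members over the 12 arrays (permutation within groups, 100000 resamples, two-sided, Benjamini-Hochberg over the 31). Eno3 had Pearson's r = 0.945 and Spearman's rho = 0.958, each at the smallest p the permutations can give (permutation p = 1e-05; adjusted p = 0.000155 and 0.00031). Pgam2 had r = 0.897 (permutation p = 1e-05; adjusted p = 0.000155) and rho = 0.930 (2e-05; 0.00031). Without the 2 arrays farthest from the median of the marker mean, r was 0.953 for Eno3 and 0.960 for Pgam2. Pfkm had r = 0.678 (permutation p = 0.0141; adjusted p = 0.146) and rho = 0.860 (0.00076; 0.00785), and r = 0.868 without those 2 arrays. No other member passed by either measure. Among the 3 members that rose, r was -0.19 for Pfkl, 0.05 for Pgam1 and -0.08 for Pgd, and all 3 stayed called with the marker mean as a covariate or without the lowest array of each group. With the marker mean as a covariate the difference was -0.34 ± 0.19 for Pgam2 and -0.42 ± 0.13 for Eno3 (limma adjusted p = 0.304 and 0.0765).

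**Figure D3:**
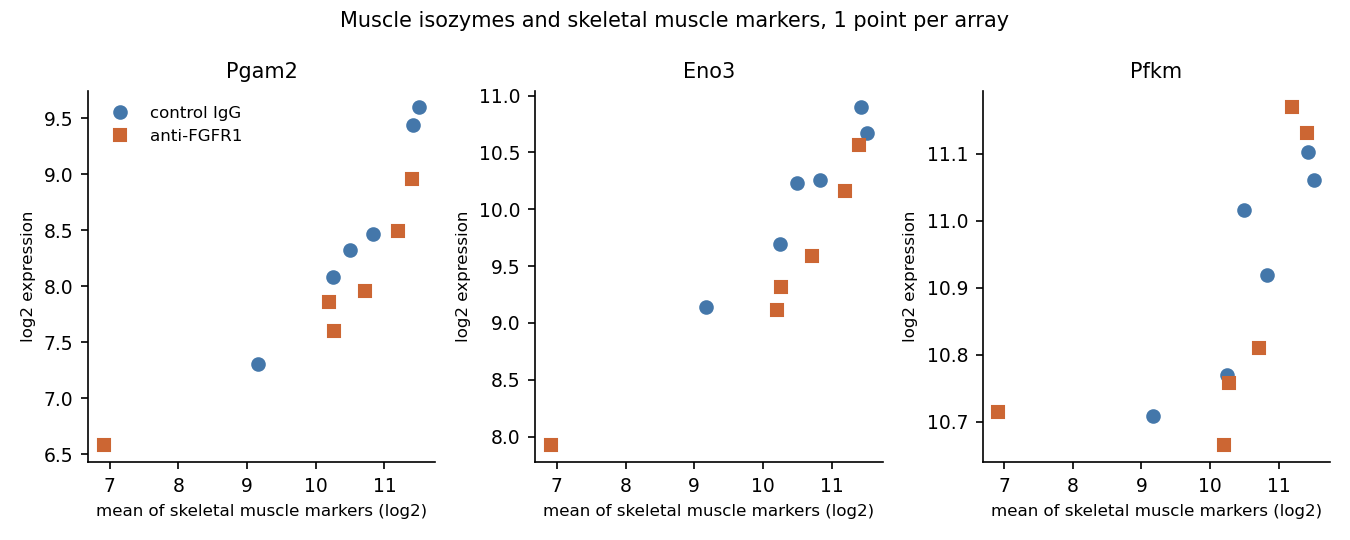
Log2 expression of Pgam2, Eno3 and Pfkm (vertical axes) against the mean of 18 skeletal muscle markers (horizontal axis, log2), 1 point per array, circles for control IgG and squares for anti-FGFR1. Pgam2 and Eno3 follow the marker mean in both groups, and the lowest point of the horizontal axis, at 6.92, is treated mouse 5.

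None of the 4 genes of lactate handling was called. Ldha, the lactate dehydrogenase subunit of muscle type, ran from 13.50 over 13.62 to 13.66 in controls and from 13.47 over 13.51 to 13.59 in treated mice. Here 3 treated mice lay below all controls (-0.07 ± 0.04; limma adjusted p = 0.326). Ldhb, the subunit of heart type, ran from 13.31 to 13.42 in controls and from 13.30 to 13.50 in treated mice, 4 of which lay above all controls and 1 below (0.06 ± 0.04). The proton-coupled lactate carriers Slc16a1 (MCT1) and Slc16a3 (MCT4) differed by -0.04 ± 0.07 and -0.12 ± 0.07.

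In the oxidative pentose phosphate arm Pgd alone was called among 3 members. Pgls, the lactonase between the dehydrogenase steps, differed by -0.05 ± 0.04, and H6pd, which supplies NADPH inside the endoplasmic reticulum, by -0.08 ± 0.05. In each of these, 3 treated mice lay below all controls. The 4 members of the non-oxidative arm all lay above 0, from 0.03 to 0.12, and none was called. Rpe, ribulose-phosphate epimerase, ran from 10.52 over 10.73 to 10.80 in controls and from 10.72 over 10.82 to 10.96 in treated mice, with 3 treated mice above all controls (0.12 ± 0.06; limma adjusted p = 0.234). Taldo1, transaldolase, ran from 12.85 over 12.94 to 13.01 in controls and from 12.91 over 13.03 to 13.17 in treated mice, 4 of them above all controls (0.10 ± 0.05; adjusted p = 0.262). Tkt, transketolase, ran from 13.75 over 13.92 to 14.06 in controls and from 13.75 over 13.99 to 14.17 in treated mice, so the groups overlapped over most of their range (0.03 ± 0.08). Rpia, ribose-phosphate isomerase, differed by 0.05 ± 0.05.

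Across the probe sets, the 31 members had 66, of which 5 were called, a share near the 6.90% of all probe sets. For 14 members there was a single probe set, and of the 17 with several, 9 had all of them on one side of 0. Glycolytic genes have many pseudogene copies in the mouse genome, and 5 of the probe sets used (Aldoa, Tpi1, Pgk1, Pgd and Tkt) are of the x type. Gpi1, Pfkfb1, Eno1 and G6pdx were not analysed here.

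Where a step has isozymes or related carriers, the difference between the log2 values of both was taken within each array and compared between groups, for 9 pairs. This comparison was added after the fold changes had been seen, some pairs share a member, and the level of one probe set against another has no meaning of its own, so the change alone is given. Ldha against Ldhb shifted by -0.13, with 5 treated mice below all controls (two-sided exact permutation p = 0.0043; adjusted over 9 pairs 0.0390). Hk1 against Hk2 shifted by 0.43, with 4 treated mice above all controls (exact p = 0.0108; adjusted 0.0487). Leaving out 1 mouse at a time ended the call of Ldha against Ldhb in 6 of 12 cases (-0.15 to -0.12, adjusted exact p up to 0.0974) and that of Hk1 against Hk2 in 7 (0.35 to 0.51, up to 0.0974).

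The other 7 pairs did not pass. Pfkl against Pfkp shifted by 0.12 and Pfkfb3 against Pfkfb4 by 0.46 (exact permutation p = 0.0216 and 0.0238; both adjusted 0.0536). The shift was 0.26 for Pfkl against Pfkm, -0.12 for Aldoa against Aldoc, 0.82 for Pgam1 against Pgam2, 0.08 for Slc16a1 against Slc16a3 and -0.07 for Slc2a1 against Slc2a3, with adjusted exact p from 0.105 to 0.636. Without the array lowest in muscle markers in each group the shifts were -0.13 for Ldha against Ldhb and 0.40 for Hk1 against Hk2. Neither pair stayed called there (adjusted exact permutation p = 0.102 for each). With 5 mice against 5 no exact p can be below 0.0079, so a single pair cannot go below 0.0714 after adjustment over 9 pairs. Several pairs at the smallest p together could go lower, so the design alone did not fix this outcome.

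**Figure D4:**
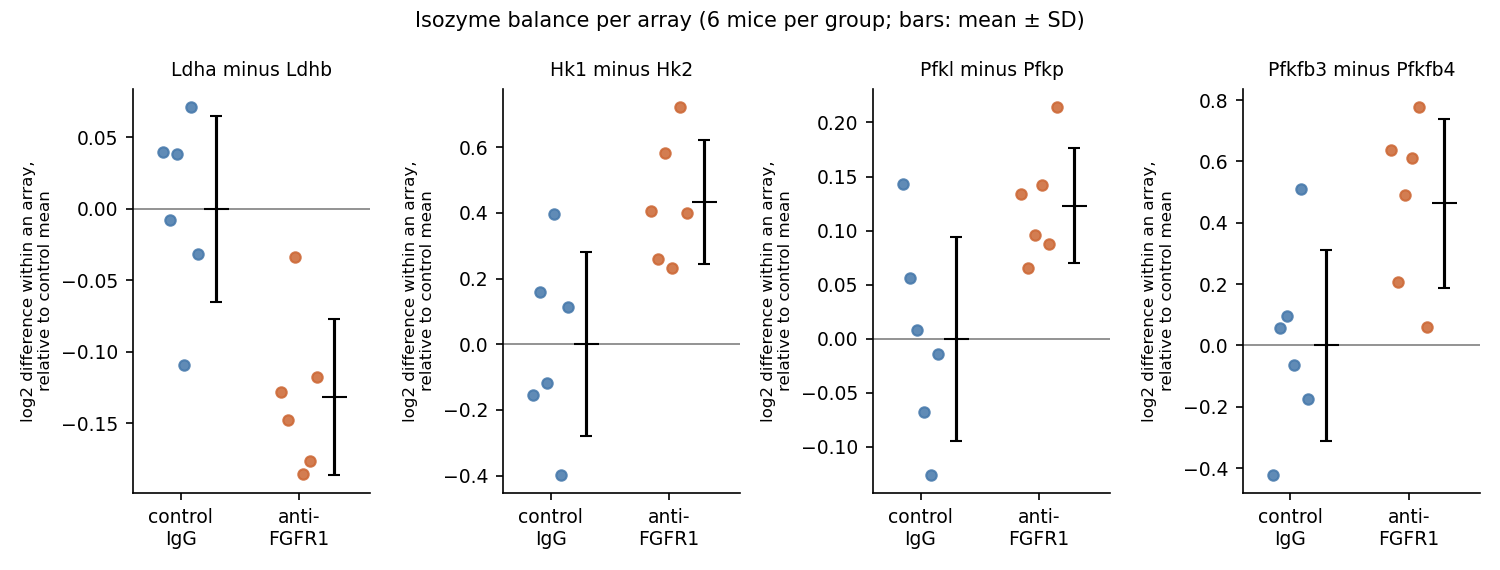
Within-array log2 difference of 4 isozyme pairs (vertical axes, relative to the control mean) in 6 control IgG and 6 anti-FGFR1 mice, with mean ± SD. Ldha minus Ldhb lies lower in 5 of 6 treated mice than in any control, and Hk1 minus Hk2 lies higher in 4 of 6.

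The other genes of carbohydrate metabolism were taken from lists by role, 105 genes of which 97 were tested. Of these 5 rose and 8 fell, where 2.94% and 5.09% of all genes did, and 84 were not called, with a median log2 fold change of 0.02. Gpd1, which makes glycerol 3-phosphate from a glycolytic intermediate, rose from 13.98 ± 0.07 (SD, n = 6) to 14.22 ± 0.09, a difference of 0.24 ± 0.05 (SE; limma adjusted p = 0.0102). It was the 1 called gene of 10 in the list of gluconeogenesis and glycerol 3-phosphate. Bpgm, the mutase of 2,3-bisphosphoglycerate best known from red cells, fell by 0.33 ± 0.05 (adjusted p = 0.0015), the 1 called gene among 10 other isozymes of glycolysis.

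In the glycogen list of 15 tested genes 1 rose and 1 fell. Pgm1, a phosphoglucomutase, rose by 0.22 ± 0.06 (limma adjusted p = 0.0336). Pgm2, another gene of that family, was not called (-0.19 ± 0.06, adjusted p = 0.0648), with 5 treated mice below all controls. Ppp1r3c of the same list was not called either (0.44 ± 0.13, adjusted p = 0.0529), with 5 treated mice above all controls. Ugp2, which makes UDP-glucose, fell by 0.38 ± 0.05 (adjusted p = 0.000248), from 12.63 ± 0.08 (SD, n = 6) to 12.24 ± 0.05. All 6 treated mice lay below all controls in Ugp2, and all 5 of its probe sets were called. Uap1, which makes the UDP-N-acetylglucosamine used in glycosylation, fell by 0.25 ± 0.05 (adjusted p = 0.0053), the 1 called gene of 12 in the side branches. Of 12 genes of pyruvate entry into mitochondria, Pdhb, a subunit of pyruvate dehydrogenase, rose by 0.16 ± 0.05 (adjusted p = 0.0396). Pdp1, the phosphatase that activates that enzyme, fell by 0.23 ± 0.05 (adjusted p = 0.0155). In the fit over probe sets, the one used for Pdhb was not called (limma adjusted p = 0.0527). The other Pdhb probe set, dimmer at 9.64 against 13.70, rose by 0.49 ± 0.07 (0.000439), with all 6 treated mice above all controls.

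Of 6 NADPH enzymes outside the pentose phosphate pathway, 2 rose and 1 fell. The cytosolic isocitrate dehydrogenase Idh1 rose by 0.17 ± 0.04 (limma adjusted p = 0.0268) and the folate enzyme Aldh1l1 by 0.35 ± 0.08 (adjusted p = 0.0128). The mitochondrial isocitrate dehydrogenase Idh2 fell by 0.19 ± 0.05 (adjusted p = 0.0211). Its other probe set differed by 0.05 but was dim, at a mean level of 4.92 against 12.60. Of 8 other monocarboxylate transporters Slc16a4 fell by 0.45 ± 0.10 (adjusted p = 0.0134). The other Slc16a4 probe set went the opposite way, by 0.18 ± 0.07, and was not called (limma adjusted p = 0.158). It was about as bright, at a mean level of 7.16 against 7.77. Of 16 regulators 2 fell: Mlxip, the glucose-sensing transcription factor MondoA, by 0.31 ± 0.05 (adjusted p = 0.00069), and Egln1, the prolyl hydroxylase that marks HIF for degradation, by 0.22 ± 0.04 (adjusted p = 0.0049). Of the 8 other glucose transporters none was called. With the 3′ to 5′ difference as a covariate none of the 5 genes that rose stayed called (adjusted p from 0.0853 for Gpd1 to 0.253 for Pdhb), nor did Idh2 (0.0799) and Egln1 (0.0520). With the mean of all probe sets of a gene the calls of Gpd1, Pgm1, Aldh1l1, Uap1, Idh2 and Slc16a4 ended, and leaving out 1 mouse at a time ended those of Pdhb in 10 of 12 cases, Pgm1 in 8, Idh1 in 7 and Idh2 in 2. That mean weighs dim probe sets equally, such as those of Gpd1 at 4.06, Uap1 at 3.96 and Idh2 at 4.92. Brighter probe sets were uncalled too, such as 1 of Gpd1 at a mean level of 13.45 (0.20, limma adjusted p = 0.227). Another was 1 of Uap1 at 8.62 (-0.08, 0.457). Only 1 of 4 probe sets was called for Gpd1 and 1 of 5 for Uap1. Why these calls ended was not tested.

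**Figure D5:**
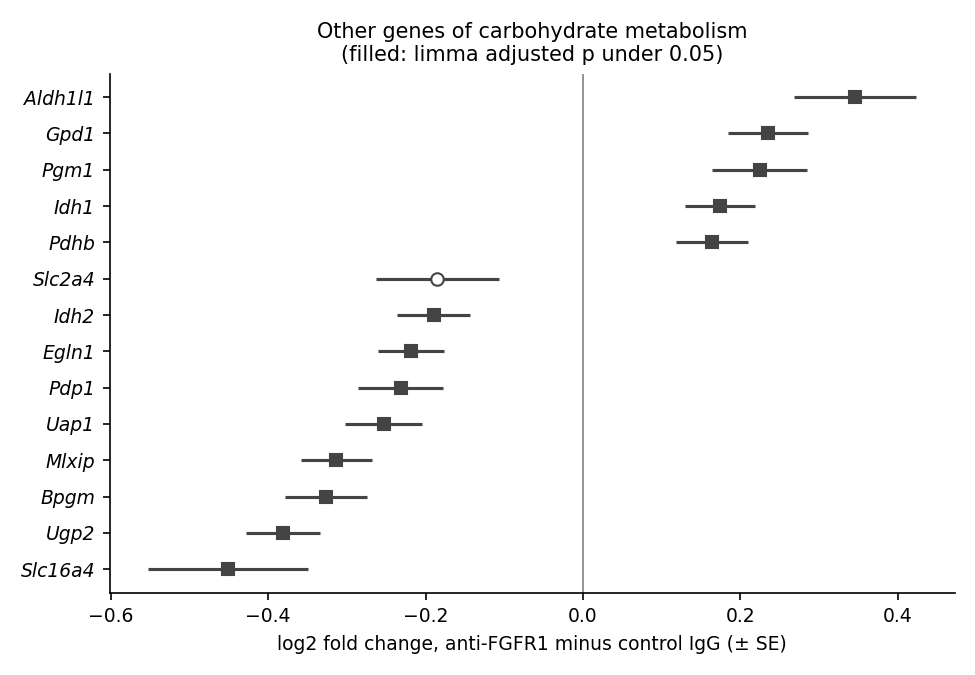
Log2 fold change (anti-FGFR1 minus control IgG, horizontal axis, ± SE) of the 13 called genes among the other genes of carbohydrate metabolism, and of Slc2a4 (open circle, not called). The 5 that rose lie between 0.16 and 0.35, and the 8 that fell between -0.45 and -0.19.

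Markers of the tissue and of other cells were measured on the same arrays. The exact p of their means are not adjusted over the 10 marker lists. Of 12 brown adipocyte markers 2 rose and 1 fell. The mean of the 12 was 12.30 ± 0.11 (SD, n = 6) in controls and 12.38 ± 0.06 in treated mice (two-sided exact permutation p = 0.132), high on a scale of array values from 3.16 to 14.9. Of 18 macrophage markers 4 rose, and their mean was 9.62 in controls and 9.85 in treated mice (exact p = 0.0758). The mean of 8 neutrophil markers, none of them called, was 6.98 in controls and 7.08 in treated mice (exact p = 0.0325). That of 8 T and B cell markers, with 1 higher, was 6.89 and 6.99 (exact p = 0.0606). Both of these means lay below the array medians in either group. Of 9 fibroblast and preadipocyte markers 3 rose and 2 fell (mean 10.68 and 10.81, exact p = 0.199). The means of 3 red blood cell and 6 nerve and Schwann cell markers differed by -0.10 and 0.04 (exact permutation p = 0.145 and 0.169). Of the red blood cell markers 1 fell, and of the nerve and Schwann cell markers 1 rose and 1 fell. Of 14 endothelial markers 8 fell (9.61 to 9.35) and of 10 smooth muscle and pericyte markers 6 fell (9.74 to 9.45), and for each mean all 6 treated mice lay below all controls (exact p = 0.0022). In whole tissue fewer cells of a type and less RNA per cell cannot be told apart, and the part of these cell types in the values of the members was not tested beyond the macrophage and muscle covariates, under which the 3 calls stayed. Array medians lay between 7.19 and 7.23, the mean correlation of an array with its own group was 0.993 to 0.996, and identical values made up at most 0.0665% of any pair of arrays.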

How the data were processed

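Biotin-labelled total RNA of brown adipose tissue was hybridised to one-colour Affymetrix arrays, 12 in all, 1 array per mouse. The authors deposited log2 expression values for 45101 probe sets, and the submitters' processing notes name RMA (background correction, quantile normalization and a summary over probes) and limma, with no version. The summary over probes tends to understate changes of dim probe sets. Arrays give no counts, so the number of arrays limits the precision. No genome build is named for the values.

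Probe sets were named through the platform table (34945 with 1 gene, 932 with several, 9211 without an entry), with symbols updated through GRCm38.p6. Control probe sets (64) were not tested. A gene was represented by its brightest probe set on average, whatever the group. The fit took all 12 arrays and no covariate (limma 3.58.1 under R 4.3.3, lmFit then eBayes; two-sided), with Benjamini-Hochberg adjustment over 18193 genes and a threshold of 0.05. Single values per array went into an exact permutation test (two-sided, 924 assignments). Figures were drawn with matplotlib 3.10.9 in Python 3.11.15.

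The members and lists were chosen with earlier results of these data known. A further pair, Pgd and H6pd, was computed beside the isozyme pairs and dropped, since these enzymes catalyse different steps. All 36 members are named. Values per array are given for the members that passed, for the 6 others with the smallest p and for the member with the highest mean in each role. Of the other genes of carbohydrate metabolism, those that passed and Slc2a4 are named. Pgm2 and Ppp1r3c were named after their values were seen. The 2 groups share replicate numbers 1 to 6. Deviations from the group mean correlated between -0.29 and 0.33 in the 6 pairs, and 2 of 6 treated arrays were closest to the control of their number. With so few pairs these values cannot show whether the numbers pair the mice, so the replicate block was kept as an alternative. The alternatives were another quantile normalization, centring on the array median, the replicate block, the mean of all probe sets, a filter on dim genes, a trended robust prior, covariates (3′ to 5′ difference, muscle markers, macrophage markers), leaving out arrays and a threshold of 0.10.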

Additional observations from a re-analysis of the deposited data

Results flagged for a closer look

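In each of the 62 groups of 6 arrays formed by the 31 members and the 2 treatments, the highest or lowest mouse was set against the rest by Dixon's ratio of its gap to the range. Chance marks about 1 group in 20, and 6 groups were marked, in 5 members. In Aldoa treated mouse 6 was highest at 14.3, above the next at 14.2. In Tpi1 control 5 was lowest at 12.9, below the next at 13.0. In Pfkfb2 control 1 was highest at 8.20, above 7.99, and treated mouse 5 was highest at 8.27, above 8.07. In Slc16a3 control 1 was highest at 7.41, above 7.17. In Rpe control 1 was lowest at 10.5, below 10.7. None of the 3 members that rose had such a mouse.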

How the results depend on the processing

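The count of members that rose, 3, fell to 1 with the 3′ to 5′ difference as a covariate and to 0 with that difference and the muscle markers together, an alternative chosen after seeing the data (Pgd then 0.27, limma adjusted p = 0.0609). It was 3 or 4 under the other alternatives and 3 to 4 when 1 mouse was left out, and no member was called lower in any. Over all genes the calls also fell, from 535 higher and 926 lower to 281 and 407 with the 3′ to 5′ covariate. With both covariates they were 288 and 412. Of the other genes of carbohydrate metabolism 5 rose. The count, and how many of those 5 it held, was 3 and 2 with the mean of probe sets, 1 and 0 with the 3′ to 5′ covariate, 8 and 5 with the muscle covariate, 3 and 2 without the array lowest in muscle markers in each group, 8 and 5 at a threshold of 0.10, and 2 and 0 with both covariates. It was 2 to 5 when 1 mouse was left out. The count of those that fell, 8, was 6 to 10 under the alternatives, which held 5 to 8 of the same 8. In the paired fit with the replicate block the 3 calls were kept (adjusted p = 0.0267 for Pgd, 0.0419 for Pgam1 and 0.0365 for Pfkl), while Pdhb, Pgm1, Idh1 and Idh2 were lost (0.0785, 0.0832, 0.0625 and 0.0579). Over all genes 63.4% of calls were lower (535 higher, 926 lower), but 50.9% after another quantile normalization (732 and 760).

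Members that were never called changed sign as follows, and the cause was not tested. With the 3′ to 5′ covariate Slc2a8 was 0.0180, Pfkfb2 -0.00934, Slc16a1 0.0241 and Tkt -0.0448, and with both covariates they were 0.0195, -0.0219, 0.0195 and -0.0345. Slc2a8 was 0.0191 after another quantile normalization. Hk3 was -0.0016 with centred arrays and -0.0248 with the muscle covariate. With the macrophage covariate Hk3 was -0.12, Pfkm 0.0462, Pkm 0.0317 and Rpia -0.00054. Without the lowest muscle arrays Pgk1 was -0.0124. Leaving out 1 mouse gave -0.0323 to 0.00708 for Slc2a8, -0.0437 to 0.0731 for Hk3, -0.0471 to 0.0253 for Pkm, -0.00819 to 0.0741 for Tkt and -0.00755 to 0.168 for Slc16a1 against Slc16a3. Slc2a1 against Slc2a3 was 0.00066 with the mean of probe sets and 0.16 with the 3′ to 5′ covariate. With the mean of probe sets Hk1 against Hk2 (0.38, adjusted exact permutation p = 0.0779) no longer passed, whereas Pfkl against Pfkp did (0.18, 0.0487), as it and Pfkfb3 against Pfkfb4 did after another quantile normalization (0.10 and 0.45, both 0.0487). The number of arrays limits the precision, with an SE from 0.04 to 0.13 for members other than Pgam2 and Eno3.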
